A study of Homo sapiens with 12 samples.

Results

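A group of 10 transcription factors of blood stem and progenitor cells, headed by SOX4, was followed in U937 cells made to express PML-RARA. The 10 genes are SOX4, MYB, HHEX, GFI1, MEIS1, LMO2, ERG, RUNX1, ETV6 and IKZF1, out of 19775 genes with a probe set (the short oligonucleotides that read 1 transcript) of 1 gene symbol. Each gene was read from the probe set of that kind with the highest mean level over the 12 arrays. RUNX1 has no such probe set, because the 13 that name it name other loci too, so 9 genes were measured. All 9 passed the filter on low signal and were among the 13959 genes tested. The list was drawn up with results of these arrays known, and SOX4 heads it because of its difference between PML-RARA and GFP cells. The values of SOX4 against GFP are therefore given as a description, with no p, and it is left out of the counts of factors that passed there.

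U937 is a human line of monocyte-like tumour cells. The cells had been electroporated with 1 of 3 plasmids and those positive for GFP sorted out, and their RNA was hybridised to Affymetrix arrays. PR2VR cells carried GFP with the PR2VR form of PML-RARA, the fusion protein of acute promyelocytic leukemia, PRWT cells carried GFP with its wild type, and GFP cells carried GFP alone. The series title names a protease-resistant fusion, which PR2VR is taken to be, although its label calls the cDNA wild type. Each plasmid was measured at 9 h and at 6 h, with 2 arrays in each of the 6 groups. All 3 plasmids carry GFP. Titles count hours after infection for the fusions and after transfection for GFP. The fusions were expressed from a plasmid for hours only. Nothing in the labels says that the replicates were separate transfections, so p-values measure the spread between arrays, which may be technical.

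SOX4 is a factor of the HMG box class that is active in immature cells and is often raised in myeloid leukemias. MYB, the cellular counterpart of a retroviral oncogene, keeps hematopoietic progenitors in cycle and is switched down as they mature. HHEX, a homeobox repressor, GFI1, a zinc finger repressor, and MEIS1, a cofactor of HOX proteins, act in stem cells and in early myeloid choices. LMO2 is a bridging protein without DNA binding of its own, ERG and ETV6 are ETS factors, an activator and a repressor, and IKZF1 (Ikaros) is a zinc finger factor best known from lymphoid cells. PML-RARA binds DNA at retinoic acid response elements and near sites of PU.1, and is known as a repressor of retinoid targets.

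The sequences upstream of SOX4, MYB and HHEX are shown because these were the members with the largest differences between fusion and GFP cells. Each is the 250 bases before the annotated start (RefSeq, GRCh38.p14), 5′ to 3′ on the plus strand, which is the coding strand of all 3 genes. They lie at chr6:21593501-21593750 for SOX4, chr6:135181058-135181307 for MYB and chr10:92689705-92689954 for HHEX. Capitals mark matches on either strand to 5 motifs.
SOX4: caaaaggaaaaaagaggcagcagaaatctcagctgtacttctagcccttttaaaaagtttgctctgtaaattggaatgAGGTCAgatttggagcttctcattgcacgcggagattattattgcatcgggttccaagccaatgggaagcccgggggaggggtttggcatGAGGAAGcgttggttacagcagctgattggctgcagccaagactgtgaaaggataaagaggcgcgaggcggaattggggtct
MYB: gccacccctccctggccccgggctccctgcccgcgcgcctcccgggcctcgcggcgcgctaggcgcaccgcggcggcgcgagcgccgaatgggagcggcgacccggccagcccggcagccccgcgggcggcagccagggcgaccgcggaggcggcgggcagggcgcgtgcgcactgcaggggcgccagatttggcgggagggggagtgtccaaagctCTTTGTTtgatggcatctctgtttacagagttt
HHEX: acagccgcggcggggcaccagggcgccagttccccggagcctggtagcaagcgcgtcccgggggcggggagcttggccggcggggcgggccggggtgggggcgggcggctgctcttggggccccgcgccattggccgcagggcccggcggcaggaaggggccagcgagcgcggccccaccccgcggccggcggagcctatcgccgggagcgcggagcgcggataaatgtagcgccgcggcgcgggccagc
The motifs searched were AGGTCA, the nuclear receptor core, GAGGAAG, an ETS site of the PU.1 kind, TGTGGT for RUNX, AACAAAG for SOX and CAACTG for MYB. The SOX4 window held AGGTCA at bases 172 to 167 before the start and GAGGAAG at bases 82 to 76. The MYB window held 1 SOX motif on the opposite strand, at bases 33 to 27 before the start. The HHEX window held none of the 5. Among the members not shown, AGGTCA was found in a window of GFI1 and GAGGAAG in a window of IKZF1. TGTGGT was found in windows of GFI1, MEIS1 and IKZF1, and CAACTG in a window of ERG. Among all 35116 promoter windows of this length, AGGTCA was found in 12.1%, GAGGAAG in 11.2%, TGTGGT in 11%, AACAAAG in 4.5% and CAACTG in 9%. No 2 matches overlapped in the windows shown. Promoters were matched for 9 of the 10 genes, and binding was not measured in these samples.

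The deposited signals were scaled alike on all arrays (trimmed mean of 1500.2). RARA, part of the transfected fusion, read 9281.2 to 58985 on the 8 fusion arrays and 48.2 to 309.2 on the 4 GFP arrays. Both fusion arrays of 6 h number 2 were the lowest of the fusion arrays (9281.2 in PR2VR and 11970.8 in PRWT). PML, the other part, read 3110.7 to 7419.7 on the fusion arrays and 4082.1 to 5832.1 on the GFP arrays, so its groups overlapped. Of 11 monocytic genes with a probe set 9 were above the filter. CTSG, a granule protease, had a median signal of 41584.95 and LYZ, lysozyme, of 7558.55, while CD14 and SPI1 were below the filter, with medians of 83.8 and 66.25. Of 6 T cell genes 2 passed the filter, of 4 B cell genes 4, of 6 erythroid and megakaryocyte genes 2 and of 8 epithelial and fibroblast genes 5. The summed B cell signal was 4864.3 to 6879.8 in PR2VR, 4310.3 to 11491.8 in PRWT and 3662 to 17695.6 in GFP, so the groups overlapped. The T cell sums, at 873.7 to 1843.3 in PR2VR, 957.1 to 2263.9 in PRWT and 529.7 to 2039.1 in GFP, overlapped too. The 3 arrays of 9 h number 2 had GAPDH ratios of 3′ to 5′ signal of 2.21 to 2.75, below those of the other arrays (3.82 to 12.9), and they include every construct. Their actin ratios were 7.79 to 10.7, against 12.5 to 58.2 on the other arrays. A higher ratio means signal weighted more toward the 3′ end, so the stronger 3′ bias was on the other arrays. An array's hour and replicate number define a set of 3 arrays, 1 per construct. Same-numbered arrays varied together at 9 h (r = 0.56 to 0.63) and only weakly at 6 h (0.15 to 0.36). Differences are also given with the set as a block at both hours.

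SOX4 was the member with the largest difference between fusion and GFP cells. Its signal was 10712.5 and 4414.6 in PR2VR at 9 h and 15759.1 and 6282.2 at 6 h. In PRWT it was 6246.3 and 4161 at 9 h and 7336.4 and 3948.2 at 6 h. In GFP it was 3628.7 and 1412.8 at 9 h and 2979.8 and 1795.5 at 6 h. The lowest of the 8 fusion arrays (3948.2) lay above the highest GFP array (3628.7), a separation seen in 1 of the 9 factors and in 0.229% of all genes, from which nothing is read because SOX4 was chosen on this contrast. The level was highest in PR2VR, then PRWT, then GFP, with mean log2 values of 13.03 ± 0.81, 12.37 ± 0.43 and 11.20 ± 0.61 (SD, n = 4 each), where log2 values are of the signal plus an offset near the 20th percentile of signals. The signals of the neighbours PR2VR and PRWT overlap. The difference from GFP was 1.82 ± 0.43 in PR2VR and 1.17 ± 0.43 in PRWT (log2, SE, n = 4 arrays per construct), which is 3.54-fold and 2.25-fold on this scale. In bulk samples, more cells with a transcript and more of it per cell cannot be told apart.

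**Figure D1:**
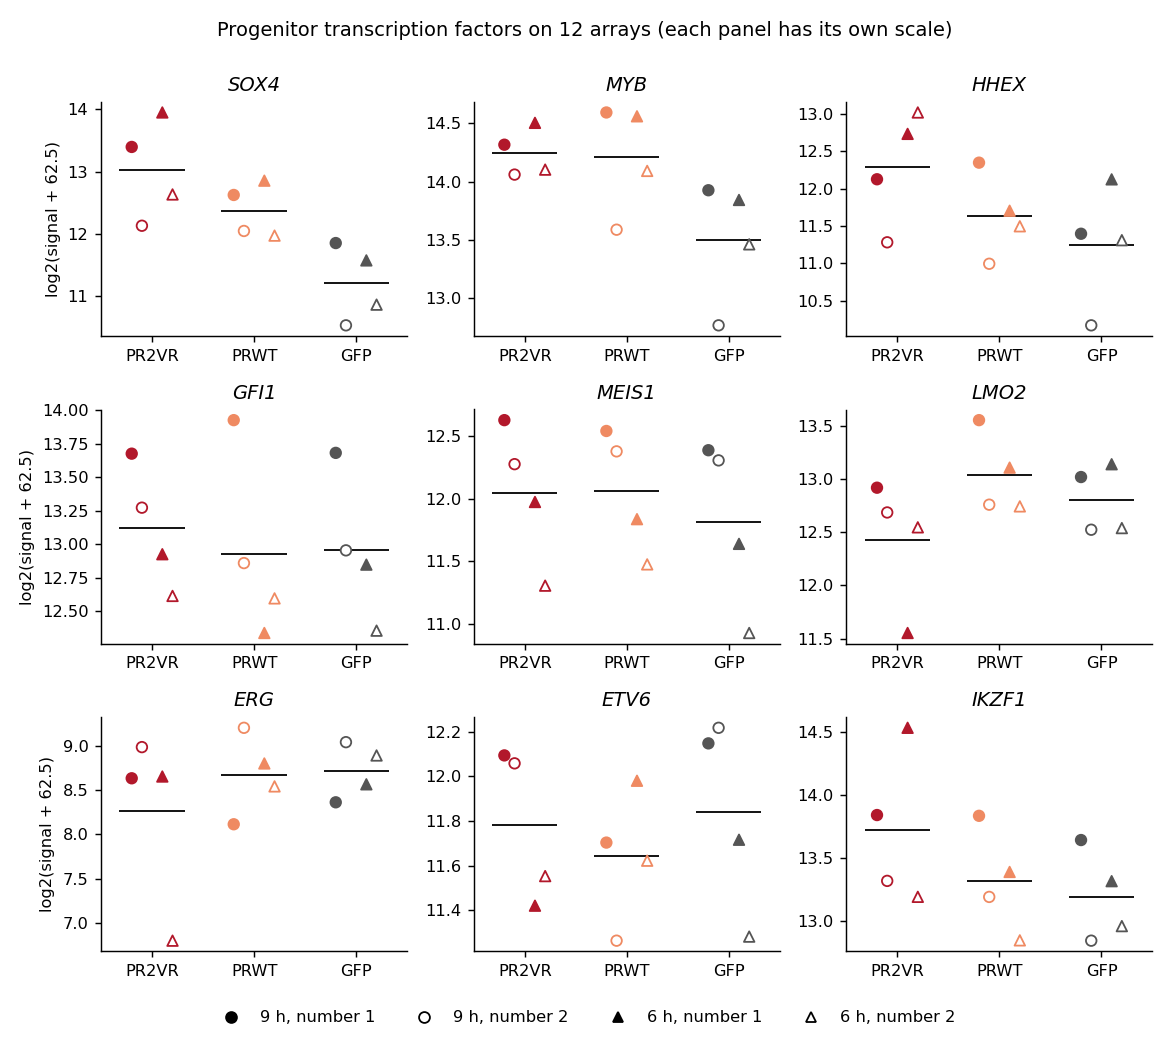
Level of the 9 measured factors, as the log2 of signal plus the offset, on each of the 12 arrays, by construct. Circles are 9 h and triangles 6 h, filled for replicate number 1 and open for number 2, and lines are means of 4 arrays. The SOX4 panel shows all 8 fusion arrays above the 4 GFP arrays, whereas in the other panels the groups overlap.

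Within sets the SOX4 difference of PR2VR from GFP was 1.55 and 1.60 at 9 h and 2.38 and 1.77 at 6 h. That of PRWT was 0.77 and 1.52 at 9 h and 1.28 and 1.11 at 6 h. PR2VR lay above PRWT in 4 of 4 sets. SOX4 has 6 probe sets. The 4 above the filter had fusion minus GFP differences of 1.50, 1.27, 1.10 and 1.76 (SE 0.36 to 0.43, log2), and the 2 below it had -0.61 and -0.81. The first of those 2 had signals of 20.7 to 360.6 on the fusion arrays and 138.9 to 429.1 on the GFP arrays, and the second 12.2 to 140.6 and 74.8 to 258.4. The 4 brighter probe sets thus pointed 1 way and the 2 dimmest the other.

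**Figure D2:**
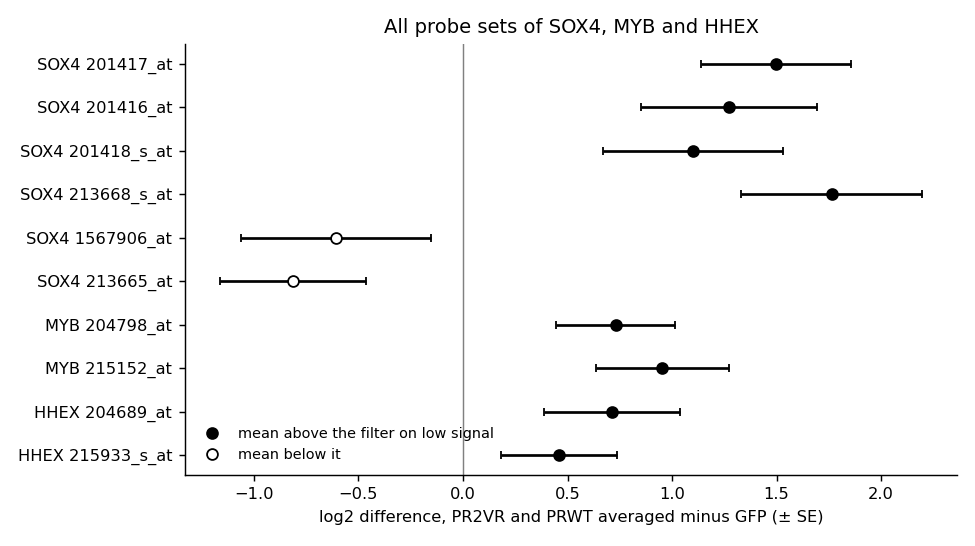
Log2 difference of the 2 fusions, averaged, from GFP for each probe set of SOX4, MYB and HHEX, with SE bars from limma on 12 arrays (all probe sets fitted). Filled points have a mean above the filter on low signal. The 4 filled SOX4 points lie between 1.10 and 1.76, and the open ones are at -0.61 and -0.81.

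MYB was higher in every fusion array than in the GFP array of its set, as were SOX4 and 2.74% of all genes. Its signal was 20344.4 and 17011.9 in PR2VR at 9 h and 23184.6 and 17525 at 6 h. In PRWT it was 24671.6 and 12227.1 at 9 h and 24111.8 and 17390.4 at 6 h. In GFP it was 15489.4 and 6883.4 at 9 h and 14611.4 and 11199.2 at 6 h. The groups overlap through 1 PRWT array (12227.1, 9 h number 2), whose GFP partner was the lowest of all. The difference of both fusions from GFP was 0.73 ± 0.29 (log2, SE, 12 arrays), 1.66-fold, and MYB did not pass by limma (adjusted p = 1.0, and 0.139 with the block, where the SE was 0.17). It was 0.75 ± 0.33 in PR2VR and 0.71 ± 0.33 in PRWT. With the block and 1 array left out, the MYB difference ranged from 0.60 to 0.86. Whether MYB passed then changed with the array left out. Nothing is read from that, as the share of all genes that passed in those fits was not taken. The second MYB probe set differed by 0.95 ± 0.32, with 7 of 8 fusion arrays above the GFP array of their set. Its groups overlap, at 910.4 to 3479.5 in the fusions and 713.2 to 1407 in GFP. The share of all probe sets with such a count was not taken.

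HHEX was the third. Its signal was 4409.2 and 2425.7 in PR2VR at 9 h and 6756 and 8258 at 6 h. In PRWT it was 5156.1 and 1975.9 at 9 h and 3275.1 and 2825.7 at 6 h. In GFP it was 2631.8 and 1087.3 at 9 h and 4404.5 and 2475.4 at 6 h. In 7 of 8 fusion arrays it exceeded the GFP array of its set, the exception being PRWT number 1 at 6 h (-0.42 log2). The share of all genes with such a count was not taken. The difference from GFP was 1.04 ± 0.39 in PR2VR and 0.39 ± 0.39 in PRWT. The PRWT value was 0.047 without PRWT number 1 at 9 h and 0.73 without number 2, and 0.079 without GFP number 2 at 9 h and 0.69 without number 1. It was 0.18 without GFP number 2 at 6 h and 0.59 without number 1. Over both fusions it was 0.71 ± 0.34 and did not pass (limma adjusted p = 1.0, and 0.243 with the block). With the block and 1 array left out it ranged from 0.50 to 0.93. Whether HHEX passed then changed with the array left out, from which nothing is read, as for MYB. The second HHEX probe set differed by 0.46 ± 0.28.

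The other 6 factors had smaller differences from GFP, and their groups overlapped. The repressor GFI1 ranged from 5111.2 to 15508.8 in the fusions and from 5174.5 to 13082.5 in GFP (0.07 ± 0.27, log2). MEIS1 ranged from 2471.3 to 6267.5 in the fusions and from 1887.6 to 5297.6 in GFP (0.24 ± 0.25). IKZF1 ranged from 7291.5 to 23706.1 in the fusions and from 7278.4 to 12730 in GFP (0.33 ± 0.30). MEIS1 and IKZF1 were above the GFP array of their set on 7 of 8 fusion arrays each. Nothing is read from these counts, as their share over all genes was not taken and both fusion arrays of a set share its GFP array. LMO2 ranged from 2940.9 to 11973.1 in the fusions and from 5827.4 to 8964 in GFP (-0.07 ± 0.28). ETV6 ranged from 2395.7 to 4310.1 in the fusions and from 2426.9 to 4702 in GFP (-0.13 ± 0.23). ERG ranged from 48.8 to 528.3 in the fusions and from 266.9 to 465.4 in GFP (-0.25 ± 0.41). None of these 6 passed without or with the block (limma adjusted p of 0.662 or more). IKZF1 has 9 probe sets, and they did not point 1 way, with the second brightest at -0.14 ± 0.44 and the fifth at -0.46 ± 0.33. The fifth was below the GFP array of the same set on 8 of 8 fusion arrays, a count whose share over all probe sets was not taken. Its groups overlap, at 203.3 to 853 in the fusions and 571.5 to 973.7 in GFP. ERG, the dimmest of the 9, was near the filter (a signal of 168.9).

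**Figure D3:**
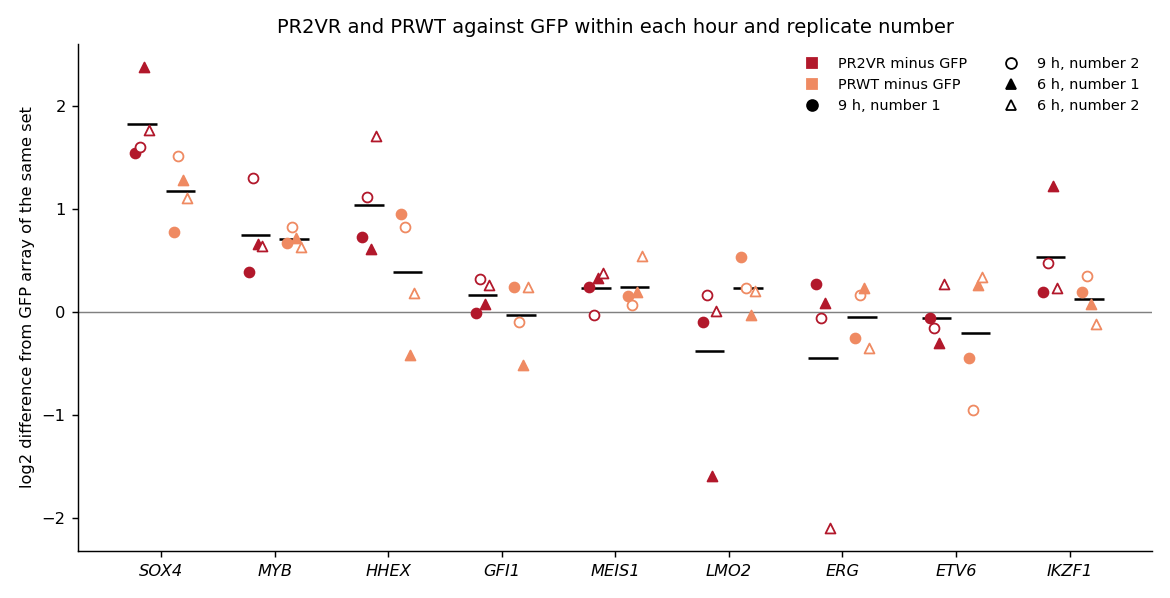
Log2 difference of each PR2VR array (left in each pair) and PRWT array (right) from the GFP array of the same hour and replicate number, for 9 factors. Lines are the averages over 4 sets. Both points of a set share the same GFP array. All 8 points lie above 0 for SOX4 and MYB and 7 of 8 for HHEX, MEIS1 and IKZF1, while 1 PR2VR array is far below 0 for LMO2 (-1.59) and 1 for ERG (-2.10).

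Of the 8 factors other than SOX4, 0 passed between fusion and GFP cells without the block, where 0.00716% of the 13959 genes did (limma, adjusted p under 0.05), and 0 with it, where 0.315% did. At an unadjusted p under 0.05 there was 1 of the 8, MYB, against 3.14% of all genes, and 2 of 8 in the blocked fit, MYB and HHEX, against 8.4%. In PR2VR against GFP 0 of the 8 passed without and with the block (0.00716% and 0.294% of all genes), and in PRWT likewise 0 (0.00716% by both fits). By unadjusted p, PR2VR had 2 of 8, MYB and HHEX (3.95% of all genes), and 3 of 8 in the blocked fit, with IKZF1 (11.1%). By the same measure PRWT had 0 of 8 (2.06%) and in the blocked fit 1 of 8, MYB (5.44%). The median difference was 0.24 over the 9 factors and 0.15 without SOX4, against -0.02 over all genes tested.

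The difference of fusion from GFP was then set against the hour. It was 1.36 ± 0.53 at 9 h and 1.64 ± 0.53 at 6 h for SOX4, 0.80 ± 0.40 and 0.66 ± 0.40 for MYB, and 0.91 ± 0.48 and 0.52 ± 0.48 for HHEX. For SOX4 in PR2VR alone it was 1.57 at 9 h and 2.08 at 6 h, and in PRWT 1.15 and 1.196. LMO2 was at 0.21 ± 0.39 and -0.35 ± 0.39, ERG at 0.03 ± 0.58 and -0.53 ± 0.58, and ETV6 at -0.40 ± 0.33 and 0.15 ± 0.33, so these lay on opposite sides of 0 at 9 h and 6 h. The test of the difference between hours was passed by 0 of the 9 factors in limma without and with the block, as by 0% of all genes, and 0 of 9 had an unadjusted p under 0.05 in either fit (0.759% of all genes without and 3.11% with the block).

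The next comparison was between the forms of the fusion, PR2VR and PRWT. SOX4 differed by 0.65 ± 0.43 (log2, SE, n = 4 arrays per form) and HHEX by 0.66 ± 0.39, both toward PR2VR. LMO2 differed the other way, by -0.62 ± 0.32. Its signal was 7684.3 and 6529.7 in PR2VR at 9 h and 2940.9 and 5920.3 at 6 h, against 11973.1 and 6872.6 in PRWT at 9 h and 8767.5 and 6796.1 at 6 h, so PR2VR was the lower in 4 of 4 sets, as in 6.93% of all genes. SOX4 and IKZF1 (0.41 ± 0.35) were the higher in PR2VR in 4 of 4 sets, as in 7.55% of all genes. MYB (0.04 ± 0.33), GFI1 (0.19 ± 0.31), MEIS1 (-0.01 ± 0.29), ERG (-0.40 ± 0.47) and ETV6 (0.14 ± 0.27) had differences smaller than 1 SE of the comparison. No factor passed in limma (0 of 9, adjusted p = 1.0 for each, and 0.723 to 0.992 with the block), as did 0% of all genes. SOX4 was chosen on contrasts that use the same PR2VR arrays, so its values here are a description. At an unadjusted p under 0.05 there were 0 of the other 8 factors without the block (1.55% of all genes). With the block there were 2 of 8, HHEX and LMO2 (6.86% of all genes).

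Number 1 of PR2VR at 6 h weighed on these values. It had the highest SOX4 and IKZF1 signals of the 12 arrays (15759.1 and 23706.1) and the lowest LMO2 signal (2940.9). Without it the differences of PR2VR from PRWT were 0.32 for SOX4, 0.07 for IKZF1 and -0.37 for LMO2, and 0.73 for HHEX. With the block, the LMO2 difference was -0.98 without number 2 of PR2VR at 6 h and -0.25 without number 1. The HHEX difference was 0.03 ± 0.55 at 9 h and 1.28 ± 0.55 at 6 h, but the test of the change between hours did not pass (-1.25 ± 0.78, limma adjusted p = 1.0, and 0.997 with the block). Over both hours its second probe set gave -0.11. The second LMO2 probe set gave 0.82, opposite to the first, so the direction of LMO2 depends on the probe set.

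Between harvest times, MEIS1 had the largest difference of the 9 factors. Its signal at 9 h was 6267.5 and 4899.5 in PR2VR, 5899.2 and 5263.4 in PRWT and 5297.6 and 5004 in GFP. At 6 h it was 3962.4 and 2471.3 in PR2VR, 3597.8 and 2787.9 in PRWT and 3130.1 and 1887.6 in GFP. The 6 arrays of 9 h lay above the 6 of 6 h, which was so for 1 of the 9 factors and for 1.25% of all genes. The difference of 9 h from 6 h was 0.89 ± 0.24 (log2, SE, 12 arrays), 1.86-fold, and did not pass in limma (adjusted p = 0.175, unadjusted p = 0.00226). That fit takes the 3 arrays of a set as independent, and with the set as a random block the SE was 0.31 and the adjusted p 0.857. It was 0.81 in PR2VR, 0.80 in PRWT and 1.06 in GFP (SE 0.41 each). Its second probe set read 1319.7 to 1935.3 at 9 h and 625 to 1312.5 at 6 h, again without overlap (0.82 ± 0.25).

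GFI1 had a signal of 13028.8 and 9836 in PR2VR, 15508.8 and 7367.1 in PRWT and 13082.5 and 7873.4 in GFP at 9 h. At 6 h it had 7715.4 and 6205.6 in PR2VR, 5111.2 and 6127 in PRWT and 7307.9 and 5174.5 in GFP. In 1 case, PRWT number 2 at 9 h, it fell among the values of 6 h. The difference was 0.78 ± 0.26 (limma adjusted p = 0.231, and 0.857 with SE 0.33 under the random block). HHEX differed by -0.68 ± 0.32 (adjusted p = 0.338, and 0.857 under the random block), ETV6 by 0.32 ± 0.22, ERG by 0.35 ± 0.39, LMO2 by 0.31 ± 0.26, MYB by -0.22 ± 0.27, SOX4 by -0.21 ± 0.35 and IKZF1 by 0.07 ± 0.29. Of the 9 factors 0 passed in limma (0.0788% of all genes), and 2 of 9 had an unadjusted p under 0.05 (15.1% of all genes). The median was 0.31 over the 9 factors and 0.13 over all genes, both toward 9 h. The probe sets of SOX4 did not give 1 value here, with the second brightest at -1.19 ± 0.40 and the third at -0.996 ± 0.41, while the second HHEX probe set gave 0.21 ± 0.26, opposite to the first.

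**Figure D4:**
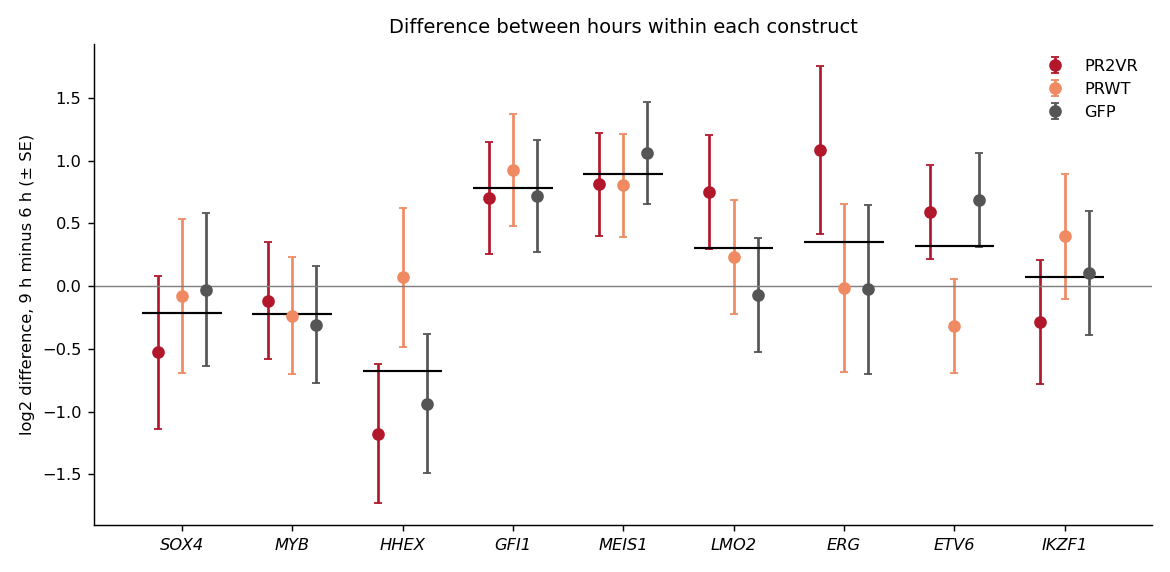
Log2 difference of 9 h from 6 h for 9 factors within PR2VR, PRWT and GFP (points with SE from limma, 2 arrays per hour and construct), with the average over constructs as a line. MEIS1 and GFI1 are above 0 in all 3 constructs, while HHEX is at -1.18 in PR2VR, 0.07 in PRWT and -0.94 in GFP.

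The GAPDH ratio differed by set at 9 h, at 8.14 to 12.9 in number 1 and 2.21 to 2.75 in number 2. At 6 h the sets overlapped, at 3.99 to 5.27 in number 1 and 3.82 to 8.28 in number 2. The highest value at 6 h was that of PRWT number 2. The part of the ratio in the differences between hours was not tested. With the 3 arrays of 9 h number 2 left out, whose ratios were the lowest, MEIS1 differed by 0.99, GFI1 by 1.15 and HHEX by -0.11. This omission is no check on the ratio, because only number 1 is then left at 9 h, with ratios of 8.14 to 12.9. Without 9 h number 2 the signs of SOX4 (0.32), MYB (0.19) and ERG (-0.00539) turned.

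The genes most like SOX4 were sought among all genes tested, by Pearson r over the 12 arrays after subtraction of each set's mean. They were LINC02806 (r = 0.995), PCNX1 (0.968), RGS18 (0.967), SFMBT2 (0.962) and PELI2 (0.961). Without that subtraction r was 0.82, 0.56, 0.98, 0.96 and 0.92 in the same order. RGS18 regulates G protein signalling in blood cells and SFMBT2 is a Polycomb group protein. Among the other 8 factors MYB came nearest to SOX4 (0.82, rank 266 of 13958), then IKZF1 (0.76), MEIS1 and HHEX (0.74 and 0.73), with LMO2 at -0.45. For MYB the most like were ASB6 (0.954), PHF13 (0.953) and GET1 (0.950). The arrays share constructs and sets, and r carries the difference from GFP by which SOX4 was chosen, so these values are a description.

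Other genes of the same network were counted in 4 lists. Of 27 partners and cofactors tested (33 listed), 0 passed between fusion and GFP cells by either fit in limma. The median difference was 0.06 (18 of 27 above 0), where all genes had -0.02 (47.6% above 0). EP300, an acetyltransferase that MYB binds, ranked first in that list (0.57 ± 0.28, limma adjusted p = 1.0). Of 12 family relatives tested (19 listed), 0 passed, with a median of -0.17 (5 of 12 above 0). RUNX2, a relative of RUNX1 and a factor of bone formation, differed by 1.11 ± 0.41 (limma adjusted p = 1.0, and 0.0639 with the block). With the block and 1 array left out, the RUNX2 difference ranged from 0.80 to 1.41. Whether RUNX2 passed then changed with the array left out, from which nothing is read. Without the block, leaving out 1 array gave differences of 0.70 to 1.51, lowest without GFP number 2 of 9 h or of 6 h and highest without GFP number 1 of either hour, and its second probe set gave -0.80.

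Of 14 other stem and progenitor genes tested (27 listed), 0 passed without the block and 1 with it, TCF7L2, which was higher in the fusions (0.00716% and 0.315% of all genes). TCF7L2 is a DNA-binding partner of beta-catenin in Wnt signalling. Its signal was 24570 and 14490.5 in PR2VR at 9 h and 26446.7 and 21330.5 at 6 h, 19987 and 11307.2 in PRWT at 9 h and 24741.5 and 16050.2 at 6 h, against 9439.8 and 4903.2 in GFP at 9 h and 13202 and 8335.9 at 6 h. The difference was 1.17 ± 0.29 (limma adjusted p = 0.633), with SE 0.15 and an adjusted p of 0.0118 under the block. The blocked call was lost when an array of GFP or of 9 h was left out (adjusted p of 0.0662 to 0.232), while the difference stayed between 1.13 and 1.22. The list was chosen with earlier results of these arrays known, so this call is not an independent test. The list's median was 0.13 (9 of 14 above 0).

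Of 18 genes reported elsewhere as targets of these factors (20 listed), 0 passed by either fit in limma, and the median was -0.04 (8 of 18 above 0). MYC, on this list and the one before, differed by 0.58 ± 0.32 and TUBB3, a tubulin gene, by -0.73 ± 0.28 (limma adjusted p = 1.0 for both, and 0.313 and 0.152 with the block). Between PR2VR and PRWT, and between 9 h and 6 h, 0 genes of the 4 lists passed in limma. First in rank by p were TUBB3 for PR2VR against PRWT (-0.95 ± 0.32, limma adjusted p = 1.0) and KDM1A, a histone demethylase that GFI1 recruits, for 9 h against 6 h (-0.99 ± 0.30, limma adjusted p = 0.209).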

How the data were processed

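Per the submitters' processing notes, the authors computed the deposited intensity values with MAS5 (version not given in the sources used here). They are on a linear scale, from 0.5 to 289408.3, with a common trimmed mean, and were not normalized further. The labels' protocols give Trizol extraction and biotin-labelled cRNA. The number of arrays limits the precision. The genome build and detection calls were not used here.

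Platform annotation named 1 gene on 41091 probe sets, several on 1801 and none on 11721. Values were the log2 of signal plus an offset near the 20th percentile of all signals (given on the axis of the plot of levels), which understates changes of dim genes. Genes were tested where the mean reached the 40th percentile of probe sets (a signal of 168.9). limma 3.58.1 in R 4.3.3 fitted 1 mean per group on all 12 arrays, with a variance trend and Benjamini-Hochberg adjustment over 13959 genes (threshold 0.05, 6 residual degrees of freedom). The fit was also run on simulated data, with set effects of equal size at both hours, unlike those of the arrays.

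Replicate numbers come from the titles. Deviations of same-numbered arrays correlated at r = 0.56 to 0.63 at 9 h and 0.15 to 0.36 at 6 h, so the set of hour and number was a block in a further fit (4 residual degrees of freedom). Hours cannot be compared in that fit. The members, lists, tests, motifs and the naming rule (all members, and up to 4 genes per list with the smallest unadjusted p) were chosen with earlier results of these data known. The alternatives were other offsets, filters, probe sets and scalings, no variance trend, a random block and omitted arrays.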

Additional observations from a re-analysis of the deposited data

Results flagged for a closer look

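ERG in PR2VR had 1 array far from the other 3, number 2 at 6 h, with a signal of 48.8 where the others had 335.2, 445.3 and 340.7. Its gap to the nearest array was 0.839 of the group's whole range on the log2 scale, above the 95% critical value for 4 samples. It was the only 1 of 27 such checks (9 factors in 3 constructs) to exceed that value, and chance exceeds it in about 1 of 20.

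For ETV6 the difference of PR2VR from PRWT pointed opposite ways at the 2 hours. It was 0.39 and 0.80 in the sets of 9 h and -0.56 and -0.07 in those of 6 h, so that the difference at 9 h exceeded that at 6 h by 0.91 ± 0.53 (log2, SE). This test was added after the values were seen and did not pass in limma (adjusted p = 1.0, and 0.997 with the block).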

How the results depend on the processing

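The number of factors that passed was 0 in each of the 6 comparisons. With the replicate block it was 1 for both fusions against GFP and 1 for PR2VR against GFP, and the same with the set as a random block. That 1 is SOX4, chosen on these contrasts, so nothing is read from it, and the count over the other 8 stayed 0. The block changed no other count. With 1 array left out it was 0 throughout without the block. With the block, an alternative chosen after seeing the data, it ran, SOX4 included, from 0 to 3 for both fusions, 0 to 4 for PR2VR and 0 to 1 for PRWT against GFP, and 0 to 1 for PR2VR against PRWT. It was 0 when an array of GFP or of 9 h was left out, and without the 3 arrays of 9 h number 2. Nothing is read from these counts with 1 array left out, as the share of all genes that passed in those fits was not taken. The counts also include SOX4, which was chosen on the contrasts with GFP. Signs turned with the second-highest probe set. Against GFP these were LMO2 (0.40), ERG (0.23), IKZF1 (-0.14) and RUNX2 (-0.80). For PR2VR against PRWT they were HHEX (-0.11), MEIS1 (0.19), LMO2 (0.82), ERG (0.33) and IKZF1 (-0.41), and for 9 h against 6 h HHEX (0.21), LMO2 (-0.19) and ERG (-0.33). Without 9 h number 2, signs turned for MYB (-0.15, with the block too) and MEIS1 (0.035) between the fusions, and for SOX4 (0.32), MYB (0.19) and ERG (-0.00539) between hours. With 1 array left out, without or with the block, signs turned within ranges of -0.12 to 0.25 for GFI1, -0.30 to 0.16 for LMO2 and -0.60 to 0.097 for ERG against GFP. Between the fusions the ranges were -0.21 to 0.29 for MYB, -0.074 to 0.46 for GFI1, -0.18 to 0.15 for MEIS1 and -0.87 to 0.075 for ERG. Between hours they were -0.43 to 0.0095 for SOX4 and -0.15 to 0.30 for IKZF1. In these omissions SOX4 stayed between 1.17 and 1.83, MYB between 0.44 and 1.02 and HHEX between 0.41 and 1.02 for both fusions against GFP. The cause of these moves was not tested. A group left with 1 array was taken to vary like the others. No value could be had for ERG at the stricter filter, for GFI1 with another probe set, or for hours with the set as a fixed block. As a random block the set raised the SE of the hours differences (0.31 to 0.55) and left 0 passed.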
